A study of Homo sapiens with 6 samples.

Results

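The HOX and CDX homeobox genes were examined on 6 single-colour expression arrays of HEK293, an established line of human embryonic kidney cells. Members were all probe sets whose gene name on the array was HOXA, HOXB, HOXC or HOXD with a number, or CDX1, CDX2 or CDX4. This gave 64 of the 45033 probe sets, for 42 genes: 17 probe sets of 11 HOXA genes, 16 of 10 HOXB genes, 15 of 9 HOXC genes, 12 of 9 HOXD genes and 4 of the 3 CDX genes. Of these genes, 21 had 1 probe set, 20 had 2 and 1 (HOXC6) had 3. The study asked whether SET8 (now KMT5A), the enzyme that places a single methyl group on lysine 20 of histone H4, is needed for the response of Wnt target genes. Cells were transfected with SET8 shRNA and given Wnt3a conditioned medium, transfected with control shRNA and given Wnt3a conditioned medium, or transfected with control shRNA and given control medium, with 2 arrays per group. Transfection lasted about 40 hours and medium was then given for 7 hours. All 3 groups share the cell line and the transfection of an shRNA. Cells with SET8 shRNA in control medium were not analysed here, so the Wnt3a response could not be compared between the shRNAs. Nothing in the labels says that the 2 arrays of a group came from separate cultures, so p-values measure no more than the spread between these arrays, and that spread may be technical.

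HOX genes encode transcription factors that bind DNA through a homeodomain and give the trunk and limbs their identity along the head-to-tail axis. They lie in 4 clusters, and in the embryo genes with low numbers are used early and towards the head, whereas genes with high numbers are used late and towards the tail. CDX proteins are related homeodomain factors encoded outside these clusters. They activate HOX genes in the posterior embryo, mark the intestine in the adult (CDX1 and CDX2), and are themselves reached by Wnt signalling in the mouse embryo.

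The promoter sequences of 22 of the 42 genes were held in a RefSeq table (build GRCh38.p14), as 29 windows of 300 bases that run from 250 bases before to 50 after a start site. The windows shown are those of HOXA4, which of the genes with 1 window had the smallest p between the shRNAs, and of CDX2, the CDX gene with signal on every array. They are written 5′ to 3′ on the minus strand, on which both genes lie, and the capitals mark CG dinucleotides, the sites of DNA methylation.
HOXA4, chr7:27130708-27131007: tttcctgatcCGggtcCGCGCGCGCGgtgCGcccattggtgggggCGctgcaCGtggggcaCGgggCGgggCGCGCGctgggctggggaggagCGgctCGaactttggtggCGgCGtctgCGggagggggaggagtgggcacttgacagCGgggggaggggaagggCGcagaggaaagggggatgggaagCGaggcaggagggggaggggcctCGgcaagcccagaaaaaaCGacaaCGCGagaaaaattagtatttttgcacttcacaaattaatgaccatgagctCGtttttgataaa
CDX2, chr13:27969266-27969565: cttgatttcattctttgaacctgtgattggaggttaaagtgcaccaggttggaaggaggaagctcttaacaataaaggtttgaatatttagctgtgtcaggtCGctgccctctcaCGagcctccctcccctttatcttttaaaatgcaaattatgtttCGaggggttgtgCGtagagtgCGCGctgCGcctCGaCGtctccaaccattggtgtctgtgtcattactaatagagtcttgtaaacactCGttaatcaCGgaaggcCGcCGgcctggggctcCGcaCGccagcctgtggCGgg
The HOXA4 window held 27 CG dinucleotides and the CDX2 window 16, with a G+C content of 63.3% and 50.3%. The median over the 29 windows was 21 CG dinucleotides, against 14 over all 35116 windows of the table, while the median G+C content was 56.7% and 58.7% for the same sets. The core of the TCF/LEF binding motif, the element through which beta-catenin reaches DNA, was searched as ATCAAAG and as CTTTGAT on the opposite strand. It was found in 0 of the 29 windows and in 2.62% of all windows, which says only that these letters are not in these windows. HOXC8, HOXC10 and HOXB13 were among the 20 genes not matched.

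Signal on each array was set against 2 levels. The first was the median log2 intensity of the array (7.63 to 7.79 over the 6 arrays), and the second was a set of 1994 random control probes (4.66 to 4.84). Probes differ in how well they bind, so the order of levels between genes was not read. All readings given per array are log2 intensities, and all differences are between means of log2 intensities. The 2 arrays of a group differed by a median of 0.25 over the members with SET8 shRNA, 0.43 with control shRNA in Wnt3a medium and 0.32 in control medium, and by more than 1 for 4, 4 and 1 members. Of the 64 HOX and CDX probe sets, 50 (78.1%) lay above the median on all 6 arrays, against 44.5% of all probe sets. A further 6 lay above it on some arrays and 8 on none. By cluster, 15 of 17 HOXA, 13 of 16 HOXB, 13 of 15 HOXC and 8 of 12 HOXD probe sets were above the median on all 6 arrays. For 33 of the 39 HOX genes at least 1 probe set was above it on every array. HEK293 cells thus gave signal from genes of all 4 clusters and from both low and high numbers within them.

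**Figure D1:**
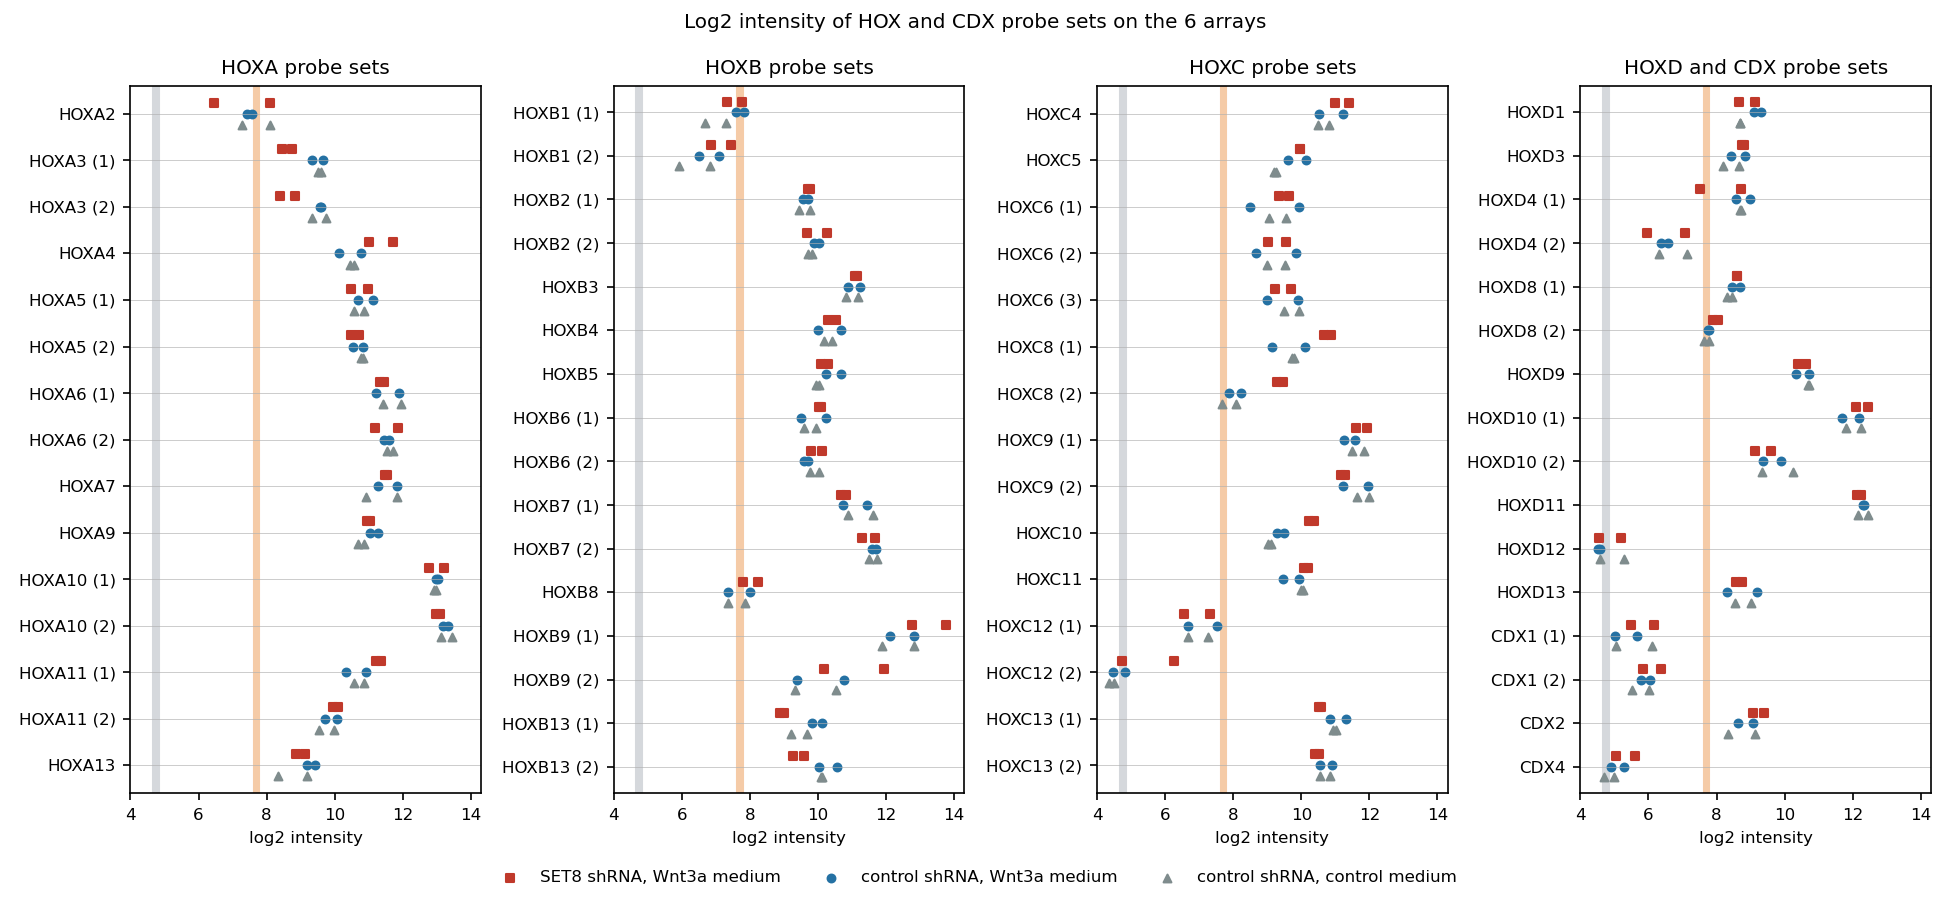
Log2 intensity (horizontal axis) of the HOX and CDX probe sets shown on the 6 arrays; squares are SET8 shRNA in Wnt3a medium, circles control shRNA in Wnt3a medium and triangles control shRNA in control medium, each symbol 1 array, and numbers in brackets tell probe sets of a gene apart. The orange band spans the array medians (7.63 to 7.79) and the grey band the random control probes (4.66 to 4.84); most HOX probe sets lie right of the orange band in all groups, while CDX1, CDX4, HOXC12 and HOXD12 lie left of it.

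The genes without a probe set above the median on any array were CDX1, CDX4, HOXC12 and HOXD12. HOXD12, a gene of the digits, read 5.19 and 4.54 with SET8 shRNA, 4.52 and 4.58 with control shRNA in Wnt3a medium, and 4.57 and 5.29 in control medium. These values lie around those of the random control probes. For HOXC12 one probe set (NM_173860) read 6.26 and 4.73 with SET8 shRNA, 4.82 and 4.48 in Wnt3a medium and 4.36 and 4.50 in control medium, and the other (AK125569) read 6.56 to 7.52 over all arrays. A second probe set of HOXB1 and of HOXD4 was also below the median on all arrays. HOXA2, a gene of the hindbrain and the second pharyngeal arch, crossed the median on single arrays in different groups: it read 6.45 and 8.11 with SET8 shRNA, 7.42 and 7.57 in Wnt3a medium and 8.11 and 7.28 in control medium.

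Probe sets above the array median on at least 2 of the 6 arrays were tested with limma, and p-values were adjusted over all 23808 that passed. Of the 64 members, 56 passed and 8 did not. None of the 56 passed through the arrays of a single group alone, but HOXB1 (BC096191) passed through 1 array of each Wnt3a medium group. Values of the targeted gene and of a Wnt target check the labels. On AY064546 KMT5A read 8.97 and 9.65 with SET8 shRNA, against 11.20 and 10.53 with control shRNA in Wnt3a medium. This is a log2 difference of -1.56 (SE 0.34, limma adjusted p = 0.236). On its other probe set (NM_020382) the readings lay closer, 9.03 and 8.34 against 9.83 and 9.76. AXIN2, a feedback gene of the Wnt pathway, read 10.00 and 9.47 in Wnt3a medium, against 8.55 and 7.79 in control medium, a log2 difference of 1.56 (SE 0.38, limma adjusted p = 1).

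The HOX genes with the smallest p between SET8 shRNA and control shRNA in Wnt3a medium included HOXC8 and HOXC10, both higher with SET8 shRNA, and HOXA3 and HOXB13, both lower. None of these differences passed the test. No HOX or CDX probe set passed an adjusted p of 0.05 between SET8 shRNA and control shRNA in Wnt3a medium, and the smallest adjusted p among them was 0.201 from limma; over all probe sets tested 0% passed. In such bulk RNA, fewer cells that use a gene and less RNA per cell cannot be told apart. At an unadjusted p under 0.05, 5 of the 56 were higher (8.93%, against 3.76% of all probe sets tested) and 4 were lower (7.14%, against 3.41%). The 5 belong to 4 genes, HOXC8, HOXC10, HOXA4 and HOXA11, and the 4 to HOXA3 and HOXB13. As these were picked by p, a lack of overlap between their groups in the readings below is partly built in by that choice. How many of all probe sets show such an order of arrays was not counted. The 2 SET8 shRNA arrays were separated from the 2 control shRNA arrays by 1.5-fold or more for 2 higher probe sets (3.57%, against 1.7%) and 3 lower ones (5.36%, against 1.46%).

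HOXC8, which patterns the thoracic spine in the mouse, had the smallest p of all members. Its probe set NM_022658 (chromosome 12, 52689156 to 52692814, hg18) read 9.47 and 9.29 with SET8 shRNA, against 7.88 and 8.24 with control shRNA in Wnt3a medium, and 8.07 and 7.67 in control medium. Both SET8 shRNA arrays were above all 4 arrays with control shRNA. SET8 minus control shRNA, both in Wnt3a medium, gave a log2 difference of 1.32 (SE 0.26, 2.50-fold; limma adjusted p = 0.201). A second HOXC8 probe set (BC053898, 52689156 to 52692376) read 10.87 and 10.66 with SET8 shRNA, against 9.14 and 10.10 in Wnt3a medium, and 9.72 and 9.78 in control medium. Here too the groups did not overlap, although the control shRNA arrays in Wnt3a medium differed from each other almost as much, and the difference was 1.14 (SE 0.34). Leaving out each array in turn gave 1.145 to 1.499 for the first probe set.

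HOXC10, a gene of the lumbar spinal cord and hindlimb in the mouse, lies at 52665220 to 52670330 on the same chromosome. It read 10.38 and 10.24 with SET8 shRNA, against 9.30 and 9.51 in Wnt3a medium, and 9.10 and 9.04 in control medium. The arrays of each group lay close together, and those with SET8 shRNA were above all others. The difference between the shRNAs was 0.91 (SE 0.23, limma adjusted p = 0.315), and leaving out each array in turn gave 0.80 to 1.01.

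The other HOXC genes did not form 1 pattern. HOXC11 had a difference of 0.44 (SE 0.25) and HOXC4 of 0.33 (SE 0.32). HOXC9, which lies between HOXC8 and HOXC10, had 0.34 (SE 0.26) on one probe set and -0.37 (SE 0.30) on the other. HOXC5 had 0.08 (SE 0.25), and the 3 probe sets of HOXC6 ranged between 0.01 and 0.28. The annotated span of HOXC4 overlaps those of HOXC5 and HOXC6, so signal of these 3 genes may not be fully separate. HOXC13, a gene of hair and nails at the posterior end, read 10.58 and 10.52 with SET8 shRNA, against 11.31 and 10.83 in Wnt3a medium, a difference of -0.52 (SE 0.25, limma adjusted p = 0.754). Over all 15 HOXC probe sets 11 were higher and 4 lower, with a median of 0.28, while the median over all probe sets of the array was 0.00. With the arrays brought to a common median, 10 were higher and 5 lower.

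HOXA3 and HOXA4, next to each other in the HOXA cluster, lay on opposite sides of 0. HOXA3 is needed for the thymus and parathyroid glands in the mouse. Its probe set BC015180 (chromosome 7, 27112343 to 27125739, hg18) read 8.74 and 8.45 with SET8 shRNA, against 9.66 and 9.35 in Wnt3a medium, and 9.61 and 9.51 in control medium. The second (NM_030661) read 8.83 and 8.39 with SET8 shRNA, against 9.57 and 9.59 in Wnt3a medium, and 9.74 and 9.34 in control medium. On both probe sets the SET8 shRNA arrays were below all others. The log2 differences were -0.91 (SE 0.24, limma adjusted p = 0.36) and -0.97 (SE 0.27, limma adjusted p = 0.371).

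HOXA4, which patterns the neck vertebrae in the mouse, lies at 27134534 to 27136924 (hg18) on chromosome 7. It read 11.01 and 11.72 with SET8 shRNA, against 10.14 and 10.78 in Wnt3a medium, and 10.46 and 10.57 in control medium. The groups did not overlap, but the 2 arrays of each Wnt3a medium group lay nearly as far apart as the groups. The difference was 0.91 (SE 0.33, limma adjusted p = 0.594), with 0.56 to 1.26 when each array was left out. HOXA11, a gene of the forearm and the developing kidney in the mouse, had 0.66 (SE 0.28) on BC040948 and 0.14 (SE 0.27) on NM_005523. On the first it read 11.36 and 11.22 with SET8 shRNA, against 10.93 and 10.34 in Wnt3a medium. The probe sets of HOXA5, HOXA6, HOXA7, HOXA9 and HOXA10 lay between -0.23 and 0.00.

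**Figure D2:**
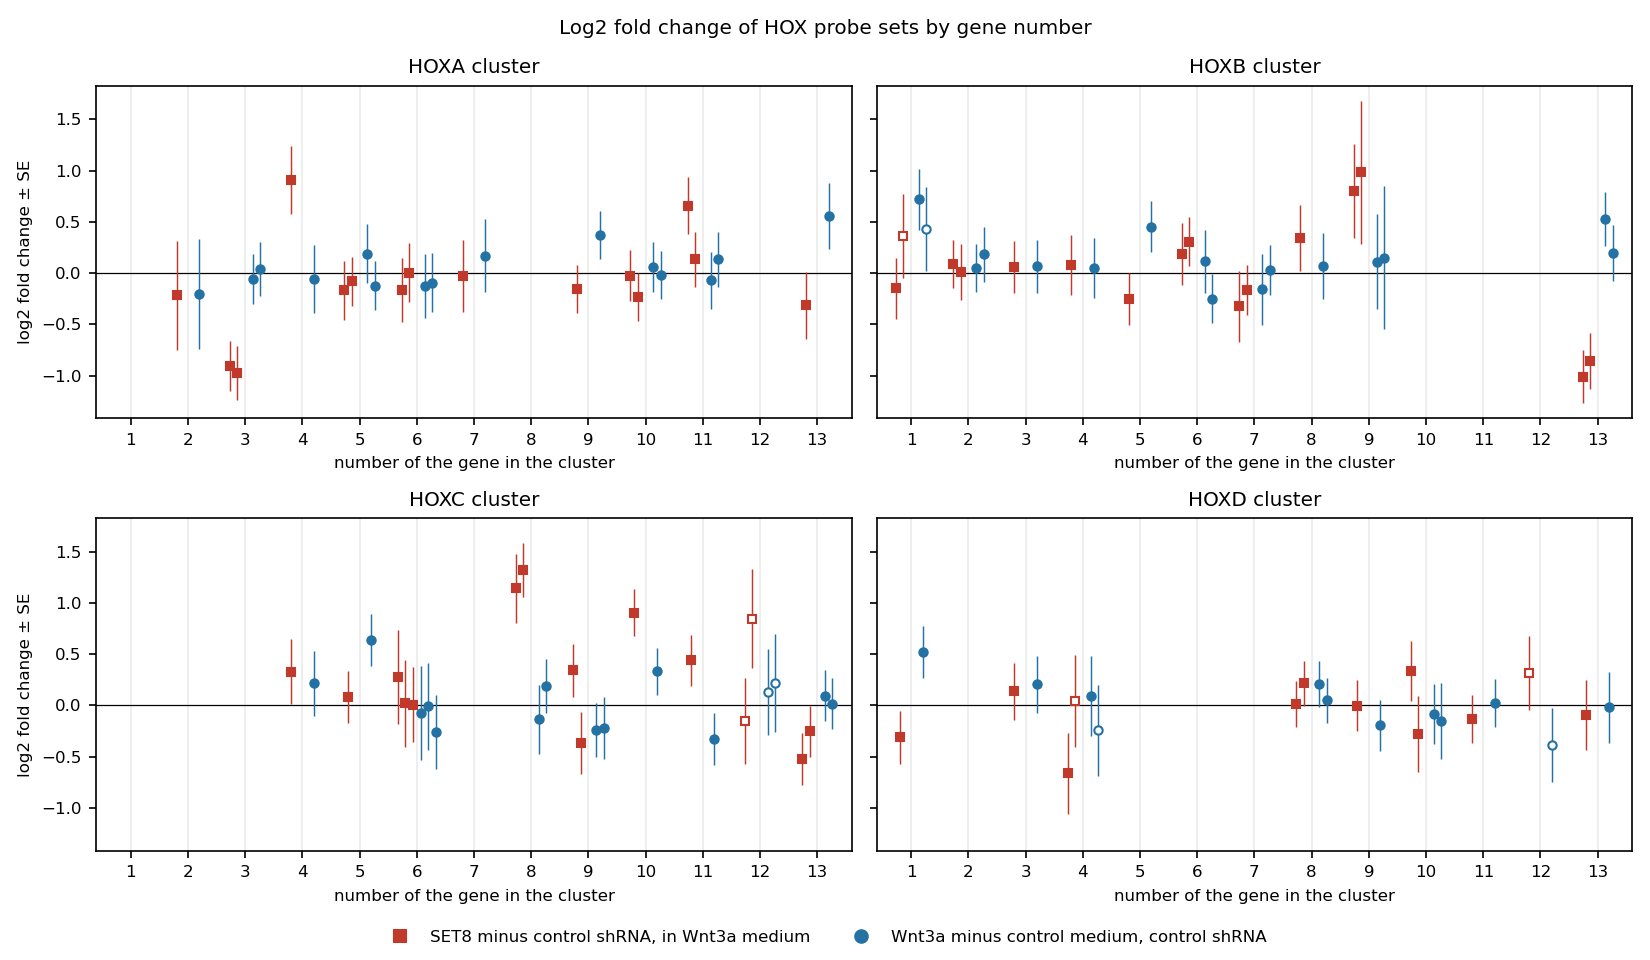
Log2 fold change with its standard error (vertical axis) of the HOX probe sets shown by the number of its gene in the cluster (horizontal axis), 1 panel per cluster; squares are SET8 minus control shRNA in Wnt3a medium, circles Wnt3a minus control medium with control shRNA, and open symbols probe sets that were not tested, with the error of a fit without the filter. HOXC8 (1.32 and 1.14), HOXC10 (0.91) and HOXA4 (0.91) stand above 0 in the SET8 comparison, and HOXA3 (-0.91 and -0.97) and HOXB13 (-1.01 and -0.86) below it.

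HOXB13, known for the prostate, lies apart from the rest of the HOXB cluster (chromosome 17, 44158763 to 44161040, hg18, for BC007092). It read 9.01 and 8.90 with SET8 shRNA, against 10.11 and 9.82 in Wnt3a medium, and 9.67 and 9.20 in control medium. The SET8 shRNA arrays were below all others, and the difference in Wnt3a medium was -1.01 (SE 0.26, 2.01-fold lower; limma adjusted p = 0.335). The second probe set (NM_006361) read 9.60 and 9.28, against 10.02 and 10.57 in Wnt3a medium, and 10.09 and 10.11 in control medium, with a difference of -0.86 (SE 0.27).

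HOXB9, a gene of the thoracic region, had differences that moved with single arrays. Its probe set BC015565 read 12.76 and 13.77 with SET8 shRNA, against 12.82 and 12.11 in Wnt3a medium, and 12.81 and 11.89 in control medium. The second probe set (NM_024017) read 10.19 and 11.93, against 10.77 and 9.38, and 10.52 and 9.34. The groups overlapped on both probe sets, and the differences of 0.80 (SE 0.46) and 0.98 (SE 0.69) were less than 2 SE. Without SET8 shRNA replicate 2 the first was 0.29, and without replicate 2 of control shRNA in Wnt3a medium it was 0.45. The probe sets of HOXB2, HOXB3, HOXB4, HOXB5, HOXB6, HOXB7 and HOXB8 lay between -0.33 and 0.34.

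The HOXD genes had differences between -0.66 and 0.33 between the shRNAs. Their 12 probe sets had a median of 0.005, 6 higher and 6 lower, and none of the 10 tested passed an unadjusted p of 0.05. The most negative was HOXD4 (BC016763) with -0.66 (SE 0.39), which read 7.53 and 8.71 with SET8 shRNA, against 8.58 and 8.98 in Wnt3a medium. HOXD11, which acts with HOXA11 in the mouse kidney, read 12.25 and 12.13, against 12.33 and 12.31, a difference of -0.13 (SE 0.23). HOXD13, a gene of fingers and toes, had -0.09 (SE 0.34). Over all 64 HOX and CDX probe sets the median difference was 0.03, with 37 higher and 27 lower (33 and 31 with a common array median). Of the 17 genes with more than 1 tested probe set, 14 had the same sign on all of them between the shRNAs in Wnt3a medium. The number was 10 between Wnt3a and control medium with control shRNA. Between SET8 shRNA in Wnt3a medium and control shRNA in control medium it was 12.

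**Figure D3:**
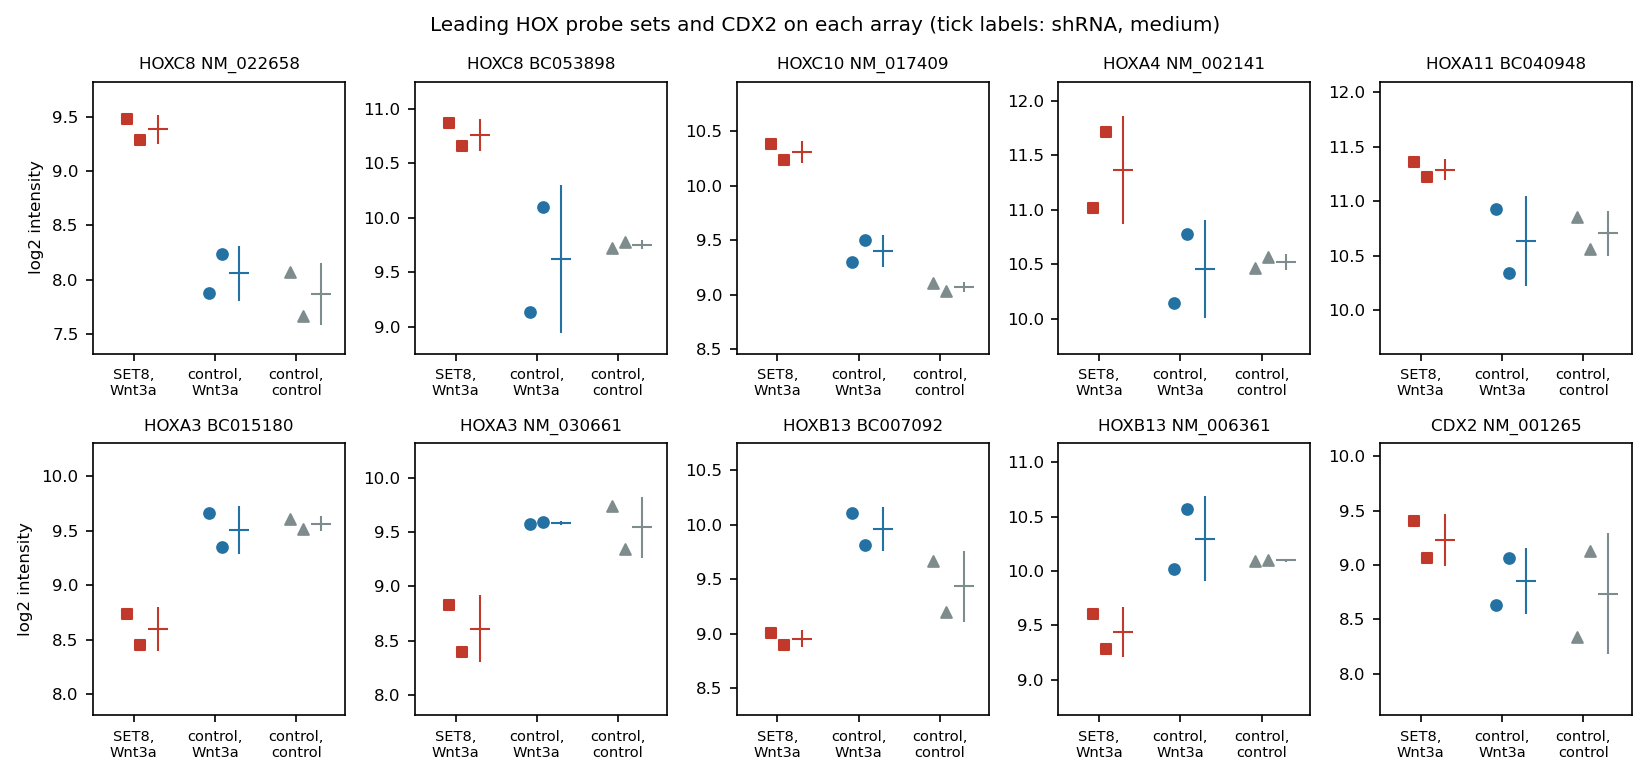
Log2 intensity (vertical axis, same span of 2.5 in every panel) on each array for the 9 HOX probe sets with an unadjusted p under 0.05 in the SET8 comparison and for CDX2; each symbol is 1 array, and the bar beside it is the mean with the SD of 2 arrays. The SET8 shRNA arrays lie above all other arrays for HOXC8, HOXC10, HOXA4 and HOXA11 and below all others for HOXA3 and HOXB13. The groups overlap for CDX2, which was not picked by its p. As the 9 HOX probe sets were picked by p, their gap between the shRNAs in Wnt3a medium is partly built in by that choice.

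Wnt3a medium gave small differences in HOX and CDX genes. Between Wnt3a and control medium with control shRNA, 0 of the 56 members passed an adjusted p of 0.05 in limma, as did 0% of all probe sets tested. At an unadjusted p under 0.05, 2 were higher (3.57%, against 1.61% of all) and 0 lower (against 0.529% of all). No member had arrays at least 1.5-fold apart, where 0.521% of all probe sets were higher and 0.122% lower in this way. Differences over the 64 probe sets ranged between -0.38 and 0.72, with a median of 0.06 (40 higher, 24 lower), and the median over all probe sets of the array was 0.02. With the arrays brought to a common median, 30 were higher and 34 lower. The median over all probe sets of the array was then -0.05. Quantile scaling gave 39 higher and 25 lower.

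CDX2 was the only CDX gene above the array median (NM_001265, chromosome 13, 27434277 to 27441317, hg18). It read 9.40 and 9.06 with SET8 shRNA, 8.63 and 9.07 with control shRNA in Wnt3a medium, and 8.34 and 9.13 in control medium. The groups overlapped. The Wnt3a difference was 0.11 and the SET8 difference 0.38, both with an SE of 0.33. The Wnt3a difference was negative without control medium replicate 1 and without replicate 2 of control shRNA in Wnt3a medium. CDX1, a Wnt target in the mouse embryo, was below the median throughout. Its probe set BC096250 read 5.50 and 6.15 with SET8 shRNA, 5.03 and 5.65 in Wnt3a medium and 5.06 and 6.12 in control medium, and NM_001804 read 5.50 to 6.36 over all arrays. CDX4, which acts in blood formation in zebrafish and mouse, read 5.60 and 5.05, 4.90 and 5.29, and 4.98 and 4.70 in the same order of groups. Neither gene passed the filter, so neither was tested.

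The HOX genes with the smallest p in the Wnt3a comparison were HOXC5 and HOXB1. HOXC5 (chromosome 12, 52713098 to 52715412, hg18) read 9.95 and 9.97 with SET8 shRNA, 10.13 and 9.62 with control shRNA in Wnt3a medium, and 9.21 and 9.27 in control medium. All 4 arrays with Wnt3a medium were above both arrays with control medium. As HOXC5 was picked by its p in this comparison, that order is partly built in by the choice. Its difference was 0.64 (SE 0.25, limma adjusted p = 1). HOXB1, a gene of the fourth rhombomere of the hindbrain, read 7.78 and 7.33 with SET8 shRNA, 7.58 and 7.83 with control shRNA in Wnt3a medium, and 6.69 and 7.28 in control medium. Its difference of 0.72 (SE 0.30, limma adjusted p = 1) comes from signal close to the array median, and the second probe set, below the median, gave 0.43.

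Next by p stood HOXD1 with 0.52 (SE 0.26), HOXB13 (BC007092) with 0.53 (SE 0.26) and HOXB5 with 0.45 (SE 0.25). HOXA13, a gene of the hand, foot and genital tract, had 0.56 (SE 0.33), HOXA9, a regulator of blood progenitors, 0.37 (SE 0.23), and HOXC10 0.33 (SE 0.23). HOXA13 read 9.43 and 9.20 in Wnt3a medium, against 9.19 and 8.33 in control medium, and its difference was 0.13 when control medium replicate 2 was left out and 0.985 when replicate 1 was. HOXD1 read 9.31 and 9.11, against 8.69 and 8.69. In the HOXB cluster 14 of 16 probe sets were higher, with a median of 0.11, but 9 with a common array median. Quantile scaling left 14 higher. In the HOXA, HOXC and HOXD clusters the medians were 0.04, 0.02 and 0.00. With a common array median they were -0.03, -0.05 and -0.07, where the median over all probe sets was -0.05. With quantile scaling they were 0.002, 0.02 and -0.04.

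The third comparison was between SET8 shRNA in Wnt3a medium and control shRNA in control medium, and shares arrays with both others. Of the 56 members tested, 0 passed an adjusted p of 0.05 in limma, against 0.0504% of all probe sets. At an unadjusted p under 0.05, 7 members were higher (12.5%, against 6.48% of all) and 3 lower (5.36%, against 4.07%). Arrays at least 1.5-fold apart were seen for 5 higher (8.93%, against 3.36%) and 1 lower (1.79%, against 1.65%). HOXC8 had 1.51 (SE 0.26, limma adjusted p = 0.0971) on NM_022658 and 1.01 (SE 0.34) on BC053898, HOXC10 had 1.24 (SE 0.23, limma adjusted p = 0.104) and HOXC5 had 0.72 (SE 0.25). With only the 4 arrays of this comparison in the fit, the limma adjusted p of HOXC8 (NM_022658) was 0.0397. Leaving out either array of control shRNA in Wnt3a medium is the same fit for this comparison, because the array that remains adds nothing to the spread. Over 16 alternative settings, some with 1 array left in a group, the limma adjusted p ranged from 0.0256 to 0.676.

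On the lower side, in the same comparison, HOXA3 had -0.97 (SE 0.24) and -0.93 (SE 0.27), and HOXB13 -0.66 (SE 0.27) on NM_006361 and -0.48 (SE 0.26) on BC007092. HOXA4 had 0.85 (SE 0.33) and HOXA11 0.59 (SE 0.28) on BC040948. CDX2 had 0.50 (SE 0.33), which became 0.10 when control medium replicate 1 was left out and 0.89 when replicate 2 was. For HOXC8, HOXA3 and HOXA4 the mean of control shRNA in Wnt3a medium lay closer to control medium than to SET8 shRNA, and for HOXC5 it lay closer to SET8 shRNA.

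PBX, MEIS and PKNOX proteins are homeodomain partners that bind DNA together with HOX proteins. Of these 9 genes, 8 had a probe set above the median on all 6 arrays, and 22 of 26 probe sets were tested. In the SET8 comparison 0 were higher and 0 lower at an unadjusted p under 0.05 in limma, against 3.76% and 3.41% of all probe sets tested (median over the 26 of -0.06), and none passed the adjusted threshold in any comparison. In the Wnt3a comparison 1 was higher and 0 lower, against 1.61% and 0.529% of all probe sets tested (median 0.21). In the third comparison 4 were higher (all 3 of MEIS3 and 1 of PKNOX2) and 0 lower, against 6.48% and 4.07% (median 0.10). MEIS3 (BC045741) and PKNOX2 (BX648615) passed the filter only through arrays with Wnt3a medium, so their differences from control medium are a description. MEIS3 (NM_020160) read 9.90 and 9.46 with SET8 shRNA, 9.64 and 9.30 with control shRNA in Wnt3a medium, and 8.86 and 8.53 in control medium. All 4 arrays with Wnt3a medium were above both with control medium, with a Wnt3a difference of 0.77 (SE 0.28, limma adjusted p = 1). As this probe set was picked by its p in the Wnt3a comparison, that order is partly built in by the choice. The other MEIS3 probe sets gave 0.92 (SE 0.41) and 0.40 (SE 0.25) for Wnt3a, and 0.19 to 0.21 was the range of all 3 for SET8. PBX2 had -0.81 (SE 0.34) on NM_002586 in the SET8 comparison, and -0.11 and -0.16 on its other probe sets.

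Genes that set or read HOX chromatin and retinoic acid signalling, which induces HOX genes, were described in the same way for the SET8 comparison. Of 23 tested Polycomb probe sets 2 were higher and 1 lower at an unadjusted p under 0.05 in limma (median 0.19), of 13 trithorax probe sets 0 and 0 (median 0.11), and of 24 retinoic acid probe sets 3 and 0 (median 0.25), where 3.76% of all probe sets tested were higher and 3.41% lower. SUZ12, a core subunit of the Polycomb complex PRC2, read 8.77 and 8.57 on NM_015355, against 7.78 and 7.88 (difference 0.84, SE 0.22), with 0.46 (SE 0.29) on another. EED, its partner, had -0.91 (SE 0.35), -0.48 (SE 0.30) and -0.47 (SE 0.23). STRA6, a transporter of vitamin A, read 11.29 and 11.19 on NM_022369, against 9.95 and 9.53 (difference 1.503, SE 0.24, limma adjusted p = 0.143), with 0.32 (SE 0.33) on BC015881. RXRB, a receptor partner of the retinoic acid receptors, had 0.83 (SE 0.31) and 0.66 (SE 0.26) on the 2 probe sets that make up the 3 with STRA6 (NM_022369). In the Wnt3a comparison the counts were 0 and 0 for Polycomb, 0 and 0 for trithorax and 1 and 0 for retinoic acid genes, the 1 being STRA6 (BC015881) with 1.23 (SE 0.33), whose other probe set gave -0.02 (SE 0.24), where the share of all probe sets tested was 1.61% and 0.529%. In the third comparison they were 1 and 2, 0 and 0, and 4 and 0, where it was 6.48% and 4.07%. STRA6 (BC015881) and SUZ12 (NM_015355) passed the filter only through arrays with Wnt3a medium.

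Genes that flank the clusters were listed as neighbours of the HOX genes. At an unadjusted p under 0.05 in limma, 0 of their 18 tested probe sets were higher and 0 lower in the SET8 comparison. The counts were 0 and 0 in the Wnt3a comparison, and 1 (SKAP1, 1.18, SE 0.46) and 0 in the third. Of all probe sets tested, 3.76% were higher and 3.41% lower for SET8, 1.61% and 0.529% for Wnt3a, and 6.48% and 4.07% in the third. With 18 probe sets, counts of 0 or 1 cannot be told apart from these shares. Of the ParaHox and EVX genes only PDX1, a pancreas gene, was tested, with 0.33 (SE 0.26) for SET8, 0.47 (SE 0.26) for Wnt3a and 0.80 (SE 0.26) in the third comparison. Of the trunk genes that Wnt induces in the embryo, 7 of 16 probe sets were tested. TBXT (brachyury) read 8.67 and 8.18 with SET8 shRNA, 7.93 and 7.42 with control shRNA in Wnt3a medium, and 5.46 and 5.35 in control medium. Like SP5 and SKAP1 (BC047870), it passed the filter only through arrays with Wnt3a medium, so its difference from control medium is a description. In the third comparison that difference was 3.01 (SE 0.29, limma adjusted p = 0.0476). TBXT was the single probe set of the 12 lists under 0.05, but the filter had let it in through the arrays on which it was high. That p is therefore no support for a difference. The call was lost with no filter, a filter at the 60th percentile or an intensity trend. It was also lost without control medium replicate 2 or either SET8 shRNA array. The Wnt3a difference of TBXT was 2.26 (SE 0.29, limma adjusted p = 0.365). SP5, a Wnt target, had 2.48 (SE 0.34) for Wnt3a, -0.43 (SE 0.34) for SET8 and 2.06 (SE 0.34) in the third comparison. At an unadjusted p under 0.05, 2 trunk probe sets were higher for Wnt3a, 1 for SET8 and 2 in the third comparison, and 0 were lower. Of all probe sets tested, 1.61%, 3.76% and 6.48% were higher and 0.529%, 3.41% and 4.07% lower in that order. The 2 for Wnt3a and in the third comparison were TBXT and SP5, so these counts too are a description.

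Of 9 genes used as marks of the HEK293 line, 7 had a probe set above the median on all 6 arrays, including VIM, KRT8, KRT18 and the neurofilament genes NEFL and NEFM. PAX2, a kidney gene, read 7.95 and 7.72 on NM_000278 with SET8 shRNA, 7.73 and 8.13 in Wnt3a medium and 7.48 and 7.32 in control medium. Markers of the line and of other cell types were compared as well. In the SET8 comparison 5 of 18 tested HEK293 line probe sets were higher (3 of NEFL and 2 of LHX1) and 0 lower, 1 of 8 epithelial probe sets higher (CDH1, 1.33, SE 0.34), 0 of 5 fibroblast probe sets either way, and 2 of 2 blood cell probe sets lower (HBA1, -1.65, SE 0.38, and CD68, -1.07, SE 0.26), at an unadjusted p under 0.05 in limma, against 3.76% of all probe sets tested higher and 3.41% lower. This CDH1 probe set (NM_004360) passed the filter only through the 2 SET8 shRNA arrays, so its differences are a description. The LHX1 probe set BC101674 was above the median on no array of control shRNA in Wnt3a medium. It passed the filter only through arrays of the other groups, so its differences (-0.68 for Wnt3a, 0.68 for SET8) are a description. The other LHX1 probe set (NM_005568), above the median on all arrays, gave -0.48 for Wnt3a and 0.60 for SET8. Of the 5 blood cell genes, 3 (PTPRC, CD3E and SPI1) were above the median on no array, and only HBA1 and CD68 were tested. Over all 9 blood cell probe sets, 3 were higher and 6 lower in the SET8 comparison. The log2 of the summed intensity of these genes was 10.00 to 10.01 with SET8 shRNA, 10.96 to 11.09 in Wnt3a medium and 10.72 to 11.17 in control medium. In the Wnt3a comparison 2 of 5 tested fibroblast probe sets were lower, COL1A2 (-2.29, SE 0.40) and COL3A1 (-0.85, SE 0.34), 1 of 18 HEK293 line probe sets was lower (LHX1, -0.68, SE 0.27), and 1 of 8 epithelial probe sets was higher (CDH1 again, 0.87, SE 0.34), against 1.61% of all probe sets tested higher and 0.529% lower. The COL1A2 and COL3A1 probe sets passed the filter only through the 2 control medium arrays, so their values too are a description. In the third comparison 4 HEK293 line and 3 epithelial probe sets were higher, and 2 fibroblast and 2 blood cell probe sets lower, against 6.48% and 4.07%. Of all 20 fibroblast probe sets, tested or not, 15 were lower in the Wnt3a comparison (median -1.28), 15 in the SET8 comparison (median -0.25) and 16 in the third (median -1.36). The 5 probe sets of DCN and the 2 of THY1, none tested, lay between -2.11 and -1.35 in the Wnt3a comparison. They lay at or below -1.60 in the third. The 5 fibroblast probe sets that were higher in the Wnt3a comparison were those of LUM (0.21 and 0.52) and COL1A1 (0.28 and 0.17), and NM_006475 of POSTN (0.20). For the fibroblast genes the summed level was 12.94 to 13.20, 13.34 to 13.38 and 13.33 to 13.35 in the same order of groups, and the 2 COL1A1 probe sets in that sum read 11.22 to 12.70 over all arrays. For the epithelial genes it was 14.20 to 14.63, 14.42 to 14.51 and 14.22 to 14.38. None of the 3 endothelial genes was above the median on any array. The part of these differences in the HOX values was not tested.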

How the data were processed

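Total RNA of 6 HEK293 samples was hybridised to NimbleGen single-colour (Cy3) arrays, per the labels' protocols. The authors deposited 1 intensity per probe set on a linear scale, made by RMA, a robust average over the probes of a set, per the submitters' processing notes; version and settings are not given in the sources used here. A deposited table of the whole series holds the same intensity values (largest difference 0). Positions are on hg18 per the file headers.

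From these, log2 intensities were computed with no offset. The 6 arrays entered 1 linear model with a term per group (limma 3.58.1, R 4.3.3, functions lmFit and eBayes; 3 residual and 4.32 prior degrees of freedom, prior SD 0.282), for probe sets above the array median on at least 2 arrays, with Benjamini-Hochberg adjustment over all 23808 and a threshold of 0.05. Differences of untested probe sets come from the same fit without the filter. The fit was tested on simulated data. A 2 against 2 exact permutation test cannot go below a p of 0.333 and was not used. With 2 arrays per group, their number limits the precision.

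The HOX and CDX members and the 12 gene lists were chosen with earlier results of these data known. Named with values are, per comparison, members past the threshold or else the 8 genes with the smallest p, all CDX genes, and members whose arrays lie 1.5-fold apart; in each other list, up to 2 genes with the smallest p per comparison. A few list genes beyond these (PAX2 and further probe sets of named genes) were added after their values were seen. Genes of lists were matched by Entrez gene ID; 86.4% of probe sets matched the RefSeq table, and no member's symbol changed. Values of 1 member gene are not reported here; the counts and medians over all members include it.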

Additional observations from a re-analysis of the deposited data

How the results depend on the processing

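The count of HOX and CDX probe sets past an adjusted p of 0.05 stayed at 0 in the Wnt3a and SET8 comparisons under every setting run. These were no filter, a filter at the 60th percentile, an intensity trend, an adjusted p under 0.1, arrays scaled to a common median or by quantiles, the 4 arrays of a comparison alone, the replicate number as a block, each array left out and, chosen after seeing the data, robust moderation and a block with crossed SET8 numbers. In the third comparison it was 1 at an adjusted p under 0.1 and with its 4 arrays alone, and 0 to 1 when an array was left out. Same-numbered arrays of Wnt3a and control medium with control shRNA deviated together (correlation 0.75 over the probe sets tested, 0.67 over 56 members), but those of SET8 shRNA went the other way (-0.29 against either group). The replicate numbers therefore mark no pairing shared by all groups. The replicate block gave 0 calls among the members in all 3 comparisons. With the SET8 numbers crossed, the count was 3 in the third comparison. Over all probe sets tested, the 12 calls of that comparison became 0 with no filter or the replicate block, 52 with the 60th percentile filter, 31 with an intensity trend, 2 with robust moderation, 6 with quantile scaling, 156 at an adjusted p under 0.1, 230 with its 4 arrays alone, 792 with crossed numbers, and 0 to 230 when an array was left out. Calls in the SET8 comparison, 0 as reported, were 15 with an intensity trend, 19 at an adjusted p under 0.1, 28 with its 4 arrays alone and 182 with crossed numbers.

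With a common array median, the median difference over the 64 probe sets was -0.0075 for Wnt3a and 0.0495 for the third comparison. Over all probe sets of the array it was -0.0514 and -0.0761 with that scaling. Leaving out an array gave -0.0161 to 0.1663 for Wnt3a over the 64 probe sets. CDX2 ranged between -0.28 and 0.51 for Wnt3a when an array was left out, with -0.28 lacking the first control medium array and -0.10 lacking the second array of control shRNA in Wnt3a medium. Over the gene lists, the count of 1 in the third comparison was 0 with no filter, the 60th percentile filter, an intensity trend, the replicate block and robust moderation, 5 with its 4 arrays alone, and 0 to 5 when an array was left out; with crossed numbers it was 10 there, 2 for SET8 and 1 for Wnt3a. Above the 60th percentile on all 6 arrays were 4 HOXD and 0 CDX probe sets, against 8 and 1 above the median. Adding 50 to the intensity before log2, done for the named members alone, changed no direction or call. The cause of these moves was not tested.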
